A study of Mus musculus with 16 samples.

Results

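The transcripts described here belong to 10 genes of the neuromuscular junction, chosen by name from the 41204 genes of the count table. They are the acetylcholine receptor subunit genes Chrna1, Chrnb1, Chrnd, Chrne and Chrng, the signalling and scaffold genes Musk, Lrp4 and Rapsn, and the genes Ache and Colq of the enzyme that removes acetylcholine. All 10 were found and all 10 passed the filter on low counts. RNA was sequenced from 4 tendons of C57BL/6J mice, an inbred laboratory strain: the supraspinatus tendon of the shoulder, the patellar tendon of the knee, the flexor tendon of the forepaw and the Achilles tendon of the heel. Each tendon had 4 libraries, labelled as mice 1 to 4, and the labels used here give no treatment, genotype, age or sex. The tendons are called Supraspinatus, Patellar, Flexor and Achilles.

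At the neuromuscular junction a motor axon releases acetylcholine onto a folded patch of the muscle fibre membrane. Agrin from the axon binds LRP4, which activates the kinase MuSK, and rapsyn then clusters the receptors. In mature muscle the receptor genes are transcribed mainly by the few nuclei under the nerve terminal, and the epsilon subunit replaces the fetal gamma subunit after birth. Junctions usually lie in a narrow band near the middle of the fibres, away from the tendon.

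Total counts ranged from 86898889 to 107805065 in Supraspinatus, from 34559686 to 63235636 in Patellar, from 97242489 to 106573353 in Flexor and from 84414005 to 97180849 in Achilles. Genes with rRNA-like sequence took 13.2% to 42.04% of Patellar counts, and at most 4.91% in any other library. Tendon fibroblast markers took between 1.21% and 7.06% of counts in every library. Muscle transcripts were present in all of them too. The 29 core muscle genes, structural and contractile genes such as Acta1, Ttn and Ckm, took 8.80% ± 0.360 of counts in Supraspinatus, 0.286% ± 0.336 in Patellar, 5.77% ± 0.908 in Flexor and 6.07% ± 1.86 in Achilles (SD, n = 4 each). The Patellar share ran from 0.0503% to 0.770%, and Patellar replicate 1 held the most. Fast fibre genes took 9.50% ± 0.400, 0.124% ± 0.127, 5.20% ± 0.852 and 2.04% ± 0.701 of counts in the same order of tendons. Slow fibre genes took 1.53% ± 0.462 in Achilles, and 0.0341% ± 0.00535 in Supraspinatus, 0.0753% ± 0.0902 in Patellar and 0.0634% ± 0.0172 in Flexor. Schwann cell markers took 0.0455% ± 0.00335, 0.0672% ± 0.0187, 0.382% ± 0.156 and 0.369% ± 0.220 of counts in Supraspinatus, Patellar, Flexor and Achilles. Supraspinatus therefore had the most muscle transcript and, with Patellar, the least Schwann cell transcript. In bulk RNA, fewer cells of a type and less RNA per cell cannot be told apart.

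**Figure D1:**
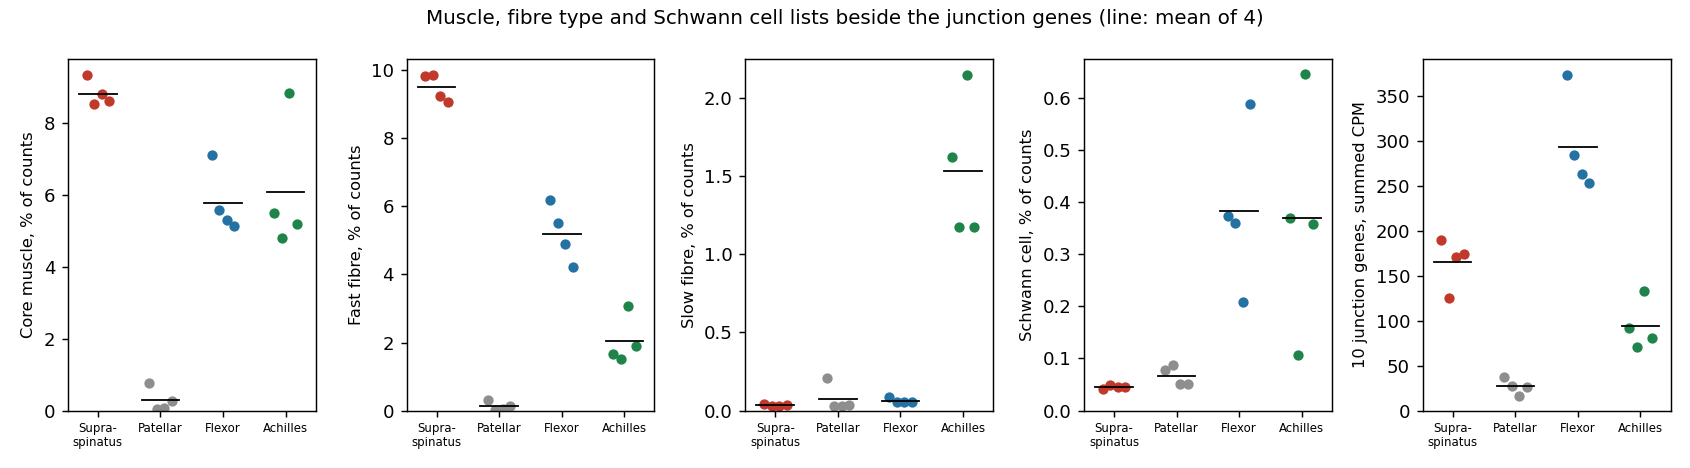
Shares of counts (percent, linear axis) of the core muscle, fast fibre, slow fibre and Schwann cell lists, and summed CPM of the 10 junction genes, in each of 16 libraries by tendon; lines are means of 4 libraries. The mean core muscle share was highest in Supraspinatus, whose range Achilles replicate 3 entered, while the summed junction genes were highest in the 4 Flexor libraries, at 253 to 374 CPM.

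The sum of the 10 junction genes and the muscle share had different orders of tendons. Summed, the genes stood at 126 to 190 CPM in Supraspinatus, 16.1 to 37.6 CPM in Patellar, 253 to 374 CPM in Flexor and 71.2 to 133 CPM in Achilles, where CPM is the count scaled to a common library size by TMM. Flexor libraries lay above all others, and Supraspinatus libraries, which held more muscle transcript, lay below them. All 10 genes differed in the test over the 4 tendons (adjusted p from 2.7e-08 for Chrnb1 to 0.012 for Lrp4), against 64.9% of the 23754 genes tested. Below, a change passed when its adjusted p in edgeR's quasi-likelihood test was under 0.05, and fold changes are log2 values ± SE of 4 libraries against 4.

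**Figure D2:**
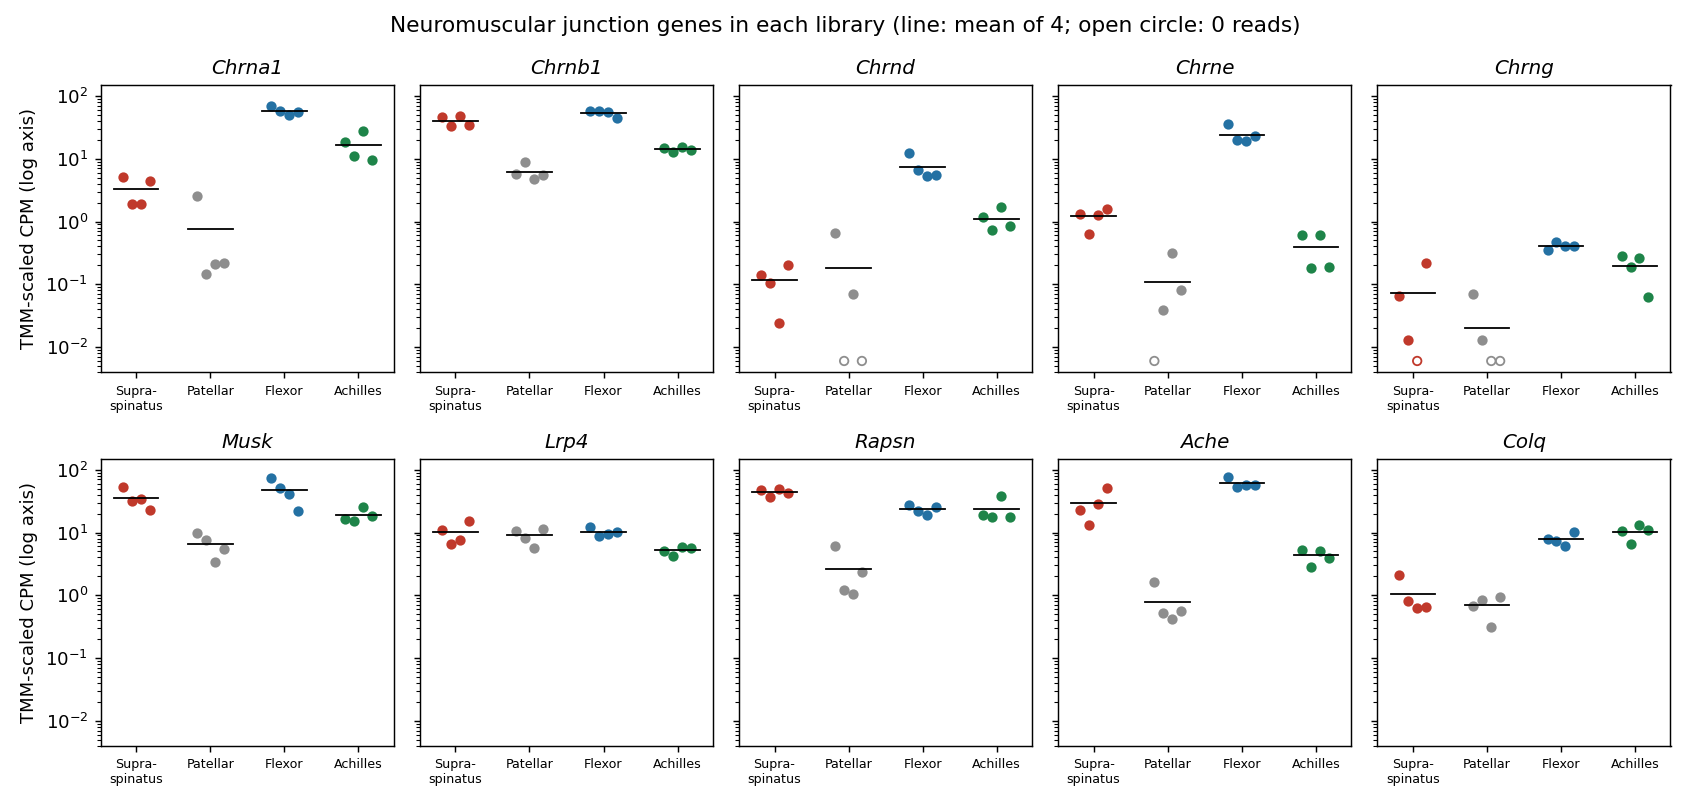
CPM (log axis) of each of the 10 genes in every library, by tendon; lines are means of 4 libraries and open circles are libraries with 0 reads. Flexor has the highest mean for 8 genes, of which Lrp4 by a margin far within the spread between libraries, while Rapsn was highest in Supraspinatus and Colq in Achilles.

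Among the receptor subunits, Chrne had the largest difference between Flexor and Achilles. Chrne, which codes for the epsilon subunit of the adult receptor (ENSMUSG00000014609, GRCm38 chromosome 11, 70614883 to 70619216, minus strand), stood at 35.2, 19.6, 19.3 and 23.2 CPM in the Flexor libraries, against 0.620, 0.179, 0.609 and 0.192 CPM in Achilles. It stood at 1.34, 0.628, 1.27 and 1.59 CPM in Supraspinatus, and the Patellar libraries held 0, 3, 9 and 3 reads. The lowest Flexor library was above the highest library of any other tendon by a wide margin, and the lowest Supraspinatus library lay just above the highest Achilles one. Chrne was higher in Flexor than in Achilles by 5.93 ± 0.59 (adjusted p = 1.0e-05) and lower in Supraspinatus than in Flexor by a log2 change of -4.33 ± 0.54 (adjusted p = 1.8e-05). Supraspinatus exceeded Achilles by 1.60 ± 0.51 (adjusted p = 0.025), a call lost without Achilles replicate 2 or 4 or Supraspinatus replicate 1, 3 or 4 (adjusted p up to 0.081). The unnamed gene 4930544D05Rik lies on the opposite strand over the Chrne span and shares 0 exon bases with it.

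Chrng codes for the fetal gamma subunit (ENSMUSG00000026253, chromosome 1, 87204657 to 87212694, plus strand), and was scarce in every tendon. It had 6, 1, 0 and 19 reads in the Supraspinatus libraries, 3, 1, 0 and 0 in Patellar, 37, 48, 46 and 46 in Flexor and 28, 19, 26 and 7 in Achilles. Flexor libraries were highest and did not overlap the others, yet the excess over Achilles, 1.06 ± 0.75, did not pass (adjusted p = 0.39). Supraspinatus was below Flexor (-2.45 ± 0.82, adjusted p = 0.035), which did not hold without any 1 Flexor library or Supraspinatus replicate 1, 2 or 3 (adjusted p up to 0.093), and was -3.86 without Supraspinatus replicate 4. Per kilobase of exon, epsilon exceeded gamma in every Flexor library, by ratios of 100.5 to 242, and in every Achilles library, by 2.33 to 7.39. The Achilles libraries held only 62, 18, 61 and 21 Chrne reads, and replicate 2 had fewer reads of Chrne than of Chrng. Its ratio above 1 came from the exon lengths used, 1690 bases for Chrne and 4163 for Chrng. In the 3 Supraspinatus libraries with any gamma reads the ratio was 18.2 to 118, and in 1 of these gamma rested on a single read. In Patellar the reads of both subunits were too few for a ratio.

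The starts of these genes show how the subunits differ in sequence. The bases from 250 before to 50 after the annotated start were available for 6 of the 10 genes from RefSeq (GRCm38.p6), and 3 are printed 5′ to 3′: Chrne, which had the largest difference, Chrng, its fetal counterpart, and Chrna1, which was highest in Flexor and lowest in Patellar. Capitals mark E-boxes (CANNTG, a motif that myogenic factors bind) and the N-box (CCGGAA, a motif described in synaptic muscle genes), searched on both strands.
Chrne (chr11:70619145-70619444, strand -): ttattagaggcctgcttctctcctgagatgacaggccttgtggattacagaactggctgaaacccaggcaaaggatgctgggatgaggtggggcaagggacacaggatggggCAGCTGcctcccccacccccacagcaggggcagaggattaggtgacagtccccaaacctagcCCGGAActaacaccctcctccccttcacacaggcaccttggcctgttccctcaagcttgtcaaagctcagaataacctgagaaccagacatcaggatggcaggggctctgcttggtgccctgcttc
Chrng (chr1:87205561-87205860, strand +): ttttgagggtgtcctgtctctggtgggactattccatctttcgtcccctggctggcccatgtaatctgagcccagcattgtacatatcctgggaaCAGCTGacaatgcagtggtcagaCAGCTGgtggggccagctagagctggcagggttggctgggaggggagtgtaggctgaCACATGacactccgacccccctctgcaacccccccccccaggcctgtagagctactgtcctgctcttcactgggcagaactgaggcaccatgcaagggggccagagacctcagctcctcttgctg
Chrna1 (chr2:73580289-73580588, strand -): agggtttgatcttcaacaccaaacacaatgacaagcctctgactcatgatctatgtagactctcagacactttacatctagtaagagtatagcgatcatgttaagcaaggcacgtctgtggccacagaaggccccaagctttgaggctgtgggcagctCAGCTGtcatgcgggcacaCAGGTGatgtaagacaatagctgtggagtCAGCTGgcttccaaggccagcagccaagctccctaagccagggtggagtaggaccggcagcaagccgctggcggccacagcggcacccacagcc
Counted from the start, with the base before it as -1, Chrne holds 1 E-box with its first base at -138 and 1 N-box at -76. Chrng holds E-boxes at -155, -132 and -75, and Chrna1 at -92, -73 and -44, with no N-box in either window. Of the 6 genes, Chrne alone had an N-box, which 14.9% of 32851 such promoter windows hold. Chrnb1, Musk, Chrng and Chrna1 each had 3 E-boxes, Chrne and Ache had 1, and 17.6% of all windows hold 3 or more and 72.3% at least 1. No motif overlapped another of the other kind. These are letter matches only, counted from the RefSeq start, which for Chrng lies inside the GENCODE gene span given above.

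Chrna1 codes for the alpha subunit, which carries most of the acetylcholine binding site (ENSMUSG00000027107, chromosome 2, 73563215 to 73580338, minus strand). It stood at 5.12, 1.87, 1.92 and 4.44 CPM in Supraspinatus, 2.50, 0.143, 0.208 and 0.215 CPM in Patellar, 69.5, 57.8, 50.1 and 55.4 CPM in Flexor and 18.3, 10.98, 27.2 and 9.40 CPM in Achilles. The order Flexor, Achilles, Supraspinatus, Patellar had no overlap until the last step, where Patellar replicate 1 reached the Supraspinatus range. Supraspinatus was below Flexor (-4.12 ± 0.67, adjusted p = 0.00022) and below Achilles (-2.30 ± 0.62, adjusted p = 0.0095). Flexor exceeded Achilles by 1.82 ± 0.60 at adjusted p = 0.0499, a call lost when any 1 of 11 of the 16 libraries was left out (adjusted p up to 0.147): each Flexor and Supraspinatus library and Achilles replicates 1, 2 and 4.

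Chrnd, the delta subunit gene (ENSMUSG00000026251, chromosome 1, 87190607 to 87200070, plus strand), ends 4586 bases before Chrng. It had 13, 8, 2 and 18 reads in Supraspinatus, 29, 0, 2 and 0 in Patellar, 1294, 669, 599 and 630 in Flexor and 118, 73, 170 and 93 in Achilles. Supraspinatus was therefore far below the other tendons rich in muscle transcript. The change was -5.96 ± 0.93 against Flexor (adjusted p = 0.00016) and -3.20 ± 0.85 against Achilles (adjusted p = 0.0089). Of the 31 Patellar reads, 29 came from replicate 1, the library with the most muscle transcript. Flexor exceeded Achilles by 2.76 ± 0.77 (adjusted p = 0.022), which did not hold without Achilles replicate 1, 2 or 4 or Flexor replicate 1 (adjusted p up to 0.075). The Patellar minus Achilles change of -2.61 ± 0.87 did not pass without Achilles replicate 3 or Patellar replicate 4 (adjusted p up to 0.065), turned to 2.89 with the core muscle level as a covariate (adjusted p = 0.16), and was -6.14 without Patellar replicate 1. Supraspinatus minus Patellar was -0.59 ± 0.95 with it (not passed) and 2.92 without it (adjusted p = 0.033). The core muscle level did not overlap between Patellar and the other tendons, so the change with that covariate is an extrapolation.

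Chrnb1 codes for the beta subunit (ENSMUSG00000041189, chromosome 11, 69784036 to 69795943, minus strand) and did not follow alpha and delta. It stood at 46.8, 32.7, 48.3 and 34.7 CPM in Supraspinatus, 5.79, 9.04, 4.69 and 5.44 CPM in Patellar, 58.1, 56.7, 55.1 and 44.9 CPM in Flexor and 14.9, 12.7, 15.2 and 13.9 CPM in Achilles. Supraspinatus and Flexor overlapped (-0.40 ± 0.18, adjusted p = 0.11), and both exceeded Achilles, by 1.52 ± 0.19 and 1.92 ± 0.19 (adjusted p = 1.9e-05 and 8.7e-06). Per kilobase of exon, beta stood to alpha at 13.5 to 43.6 in Supraspinatus libraries, 4.006 to 109 in Patellar, 1.41 to 1.91 in Flexor and 0.971 to 2.57 in Achilles. The same ratio of epsilon to alpha was 0.680 to 1.72 in Supraspinatus, 0.879 to 1.31 in Flexor and 0.0422 to 0.0882 in Achilles. For delta to alpha it was 0.0170 to 0.0746 in Supraspinatus, 0.134 to 0.240 in Flexor and 0.0832 to 0.120 in Achilles. Flexor thus held alpha, beta and epsilon at similar levels per kilobase, with less delta. Achilles held little epsilon beside its alpha and Supraspinatus much beta beside its alpha.

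Among the genes that build the junction, Musk, the receptor kinase (ENSMUSG00000057280, chromosome 4, 58285960 to 58374303, plus strand), stood at 53.2, 32.3, 34.6 and 23.1 CPM in Supraspinatus, 9.72, 7.64, 3.37 and 5.46 CPM in Patellar, 74.3, 51.3, 41.01 and 21.7 CPM in Flexor and 16.2, 15.2, 25.6 and 18.3 CPM in Achilles. Patellar lay below all others without overlap, and the other tendons overlapped. Flexor exceeded Achilles by 1.32 ± 0.36 (adjusted p = 0.019), which did not hold without Achilles replicate 1, 2 or 4 or Flexor replicate 1 (adjusted p up to 0.069). Supraspinatus minus Achilles was 0.93 ± 0.36 (adjusted p = 0.055), which passed when any 1 of 6 libraries was left out (adjusted p down to 0.033), and Supraspinatus minus Flexor -0.39 ± 0.35 (adjusted p = 0.44).

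Rapsn codes for rapsyn, the protein that anchors receptors under the membrane (ENSMUSG00000002104, chromosome 2, 91035620 to 91045729, plus strand). It stood at 47.6, 37.3, 48.7 and 42.9 CPM in Supraspinatus, 6.06, 1.20, 1.04 and 2.37 CPM in Patellar, 27.4, 22.2, 18.7 and 25.4 CPM in Flexor and 19.3, 17.7, 38.2 and 17.9 CPM in Achilles. Supraspinatus was the highest in mean and overlapped Achilles through Achilles replicate 3, which also had the largest core muscle share of its tendon. Flexor minus Achilles was 0.01 ± 0.40 (adjusted p = 0.99), Supraspinatus minus Achilles 0.92 ± 0.40 (adjusted p = 0.087) and Supraspinatus minus Flexor 0.91 ± 0.40 (adjusted p = 0.10). The excess of Supraspinatus passed against Achilles without Achilles replicate 3 or Patellar replicate 1 (adjusted p down to 0.014), and against Flexor without Patellar replicate 1 (0.018). Patellar was below Achilles by a log2 change of -3.12 ± 0.44 (adjusted p = 6.0e-05).

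Lrp4, the agrin receptor, is also known from bone and other tissues (ENSMUSG00000027253, chromosome 2, 91457511 to 91513779, plus strand). Patellar libraries were not low in it. It stood at 10.8, 6.68, 7.55 and 15.1 CPM in Supraspinatus, 10.5, 8.32, 5.66 and 11.5 CPM in Patellar, 12.1, 8.77, 9.45 and 10.2 CPM in Flexor and 5.01, 4.23, 5.83 and 5.61 CPM in Achilles. Achilles was lowest. Supraspinatus, Patellar and Flexor exceeded it by 0.95 ± 0.26, 0.80 ± 0.26 and 0.97 ± 0.26 (adjusted p = 0.0091, 0.022 and 0.016) and overlapped among themselves, and 1 Patellar library also overlapped Achilles. The Patellar excess did not hold without Achilles replicate 2 or Patellar replicate 1 or 4 (adjusted p up to 0.082), nor the Flexor excess without Achilles replicate 1 or 2 (up to 0.060). Osteoblast markers took 0.00186% ± 0.000284, 0.00392% ± 0.00139, 0.00250% ± 0.000229 and 0.0612% ± 0.0281 of counts in Supraspinatus, Patellar, Flexor and Achilles, and their part in the Lrp4 levels was not tested.

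Of the enzyme genes, Ache codes for acetylcholinesterase (ENSMUSG00000023328, chromosome 5, 137287519 to 137294466, plus strand). It stood at 23.1, 13.1, 28.3 and 51.5 CPM in Supraspinatus, 1.63, 0.521, 0.417 and 0.565 CPM in Patellar, 76.4, 53.8, 57.8 and 56.6 CPM in Flexor and 5.33, 2.85, 5.13 and 3.90 CPM in Achilles. The tendons fell into the order Flexor, Supraspinatus, Achilles, Patellar with no overlap between any of them. Flexor and Supraspinatus exceeded Achilles by 3.83 ± 0.42 and 2.75 ± 0.40 (adjusted p = 2.5e-05 and 9.0e-05). Supraspinatus minus Flexor was -1.08 ± 0.38 (adjusted p = 0.043), which did not hold when any 1 Flexor library, Achilles replicate 1 or 4, or Supraspinatus replicate 1, 2 or 3 was left out (adjusted p up to 0.116).

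Colq codes for the collagen tail that ties the enzyme to the basal lamina of the junction (ENSMUSG00000057606, chromosome 14, 31523082 to 31591343, minus strand), and parted from Ache. It stood at 2.07, 0.812, 0.623 and 0.660 CPM in Supraspinatus, 0.666, 0.833, 0.312 and 0.942 CPM in Patellar, 7.91, 7.28, 5.99 and 10.01 CPM in Flexor and 10.6, 6.45, 13.3 and 11.02 CPM in Achilles. Flexor and Achilles overlapped (-0.41 ± 0.37, adjusted p = 0.51), and so did Supraspinatus and Patellar (0.57 ± 0.40, adjusted p = 0.24). Supraspinatus was below Flexor (-2.90 ± 0.40, adjusted p = 4.6e-05) and below Achilles (-3.31 ± 0.40, adjusted p = 1.9e-05). Colq shares 199 exon bases with Gm49387 on the same strand, a gene that is not in the count table. How reads on those bases were counted is not known. Prima1, which codes for the membrane anchor of the same enzyme in nerve tissue, was at 8.21 ± 4.77 CPM in Supraspinatus, 0.525 ± 0.288 CPM in Patellar, 0.545 ± 0.132 CPM in Flexor and 0.415 ± 0.136 CPM in Achilles (SD, n = 4 each). It was higher in Supraspinatus than in Flexor by 3.91 ± 0.45 and than in Achilles by 4.30 ± 0.46, opposite to Colq.

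By comparison, 7 of the 10 genes were higher and 0 lower in Flexor than in Achilles, where 6.5% of all genes tested were higher and 9.72% lower (16.2% either way). The number was 3 without Achilles replicate 1 or 2 and 4 without Achilles replicate 4 or Flexor replicate 1. The 3 that did not pass with all libraries were Chrng, Colq and Rapsn. In Supraspinatus minus Achilles 4 were higher and 3 lower, against 16.9% and 16.7% of all genes (33.6% either way). Chrnb1, Chrne, Ache and Lrp4 made up the first set, and Chrna1, Chrnd and Colq the second. In Supraspinatus minus Flexor 0 were higher and 6 lower, against 14.7% and 12.4% of all genes (27.1% either way). The 6 were Chrna1, Chrnd, Chrne, Chrng, Ache and Colq. The median change of the 10 was 1.57, 0.93 and -1.76 in these comparisons, and that of all genes lay between -0.07 and 0.00.

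In Patellar minus Achilles 9 were lower and 1, Lrp4, was higher, against 21.1% and 17.4% of all genes (38.4% either way). In Patellar minus Flexor 9 were lower and 0 higher, against 26.2% and 24.2% (50.3% either way), and Lrp4 did not pass. In Supraspinatus minus Patellar 6 were higher and 0 lower, against 26.4% and 26.8% (53.3% either way). Those 6 were Chrna1, Chrnb1, Chrne, Ache, Musk and Rapsn, the largest at 5.20 ± 0.47 for Ache. Chrna1 was at 2.12 ± 0.68, and at 4.23 without Patellar replicate 1, but at -3.17 with the core muscle level as a covariate (adjusted p = 0.045). In Patellar minus Achilles the Chrne and Chrng changes (-2.18 ± 0.71 and -3.11 ± 1.05) each missed the threshold when any 1 of 4 libraries was left out (adjusted p up to 0.084 and 0.072), and Chrne was at -3.37 without Patellar replicate 3. All 29 core muscle genes, from which the muscle share was computed, passed as lower in Patellar than in each of the other tendons. With the core muscle level as a covariate, 0 of the 10 genes were higher and 2 lower in Patellar minus Achilles. The numbers were 0 higher and 3 lower in Patellar minus Flexor, and 1 higher and 2 lower in Supraspinatus minus Patellar. No share of all genes was computed for that fit. The core muscle level (mean log2 CPM) ran from 2.62 to 6.51 in Patellar and was at least 8.84 in every other library. The Patellar changes in that fit therefore extend a slope across levels that no library held. In the authors' deposited table, which holds 9 of the 10 genes and leaves Chrng out, all 54 calls at an FDR of 0.05 were the same.

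To set the genes beside muscle content, the 12 Supraspinatus, Flexor and Achilles libraries were rescaled by the mean log2 CPM of the core muscle genes, which averaged 10.1 ± 0.136, 9.33 ± 0.268 and 9.18 ± 0.466 (SD, n = 4 each). On this scale a value of 0 means a change equal to that of muscle transcripts, and the median of all 22985 genes tested was -1.0 in Supraspinatus minus Achilles, -0.86 in Supraspinatus minus Flexor and -0.17 in Flexor minus Achilles. Rapsn did not pass on this scale: its muscle-relative change was 0.07 ± 0.20 in Supraspinatus minus Achilles, 0.12 ± 0.20 in Supraspinatus minus Flexor and -0.05 ± 0.20 in Flexor minus Achilles. As a ratio to 1000 CPM of the core muscle level, Rapsn stood at 35.7 to 43.1 in Supraspinatus, 30.3 to 49.1 in Flexor and 34.5 to 40.9 in Achilles, with the groups overlapping. That depended on the muscle measure, and the median of all genes was not computed for other measures. With summed fast and slow fibre counts as library sizes, Rapsn was at -0.83 in Supraspinatus minus Achilles and -0.59 in Flexor minus Achilles (adjusted p = 0.0017 and 0.037), and at -0.24 in Supraspinatus minus Flexor (adjusted p = 0.31).

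In Supraspinatus minus Flexor 9 of 10 were lower relative to muscle, against 55.1% of all genes lower and 5.23% higher (60.4% either way). With fast and slow fibre counts as library sizes 9 were again lower, and 5 were in a fit of all 16 libraries. On the fibre scale each of the 10 was lower than on the core muscle scale, such as Chrna1 at -5.26 against -4.90. No share of all genes was computed for these other fits. In the fit of 12 libraries the changes ran from -0.78 ± 0.29 for Lrp4 to -6.66 ± 0.47 for Chrnd. Chrne was at -5.08 ± 0.41 and Chrna1 at -4.90 ± 0.36. Those 3 receptor subunits were far below the median of all genes, as were Colq (-3.76 ± 0.38) and Chrng (-3.19 ± 0.74). Ache was at -1.82 ± 0.35. Musk (-1.13 ± 0.25), Chrnb1 (-1.19 ± 0.21) and Lrp4 were close to that median. Lrp4 did not pass without Flexor replicate 3 or 4 or Supraspinatus replicate 1, 2 or 3 (adjusted p up to 0.098).

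In Supraspinatus minus Achilles 4 were lower and 2 higher relative to muscle, against 65.2% and 3.63% of all genes (68.9% either way). With fast and slow fibre counts as library sizes 7 were lower and 1 higher, and in a fit of all 16 libraries 3 lower and 0 higher. No share of all genes was computed for these other fits. Fast and slow fibre genes took 9.50% and 0.0341% of counts in Supraspinatus and 2.04% and 1.53% in Achilles. That difference lowers every gene in Supraspinatus on the fibre scale. In the fit of 12 libraries Colq (-4.26 ± 0.39), Chrnd (-4.05 ± 0.44) and Chrna1 (-3.15 ± 0.33) were lower. Chrng (-2.24 ± 0.74, and -3.76 without Supraspinatus replicate 4) was too. Ache (1.85 ± 0.35) and Chrnb1 (0.54 ± 0.21) were higher, though Chrnb1 not without Supraspinatus replicate 1 or 3 (adjusted p up to 0.096), and at -0.35 with fast and slow fibre counts as library sizes (adjusted p = 0.15). Musk and Lrp4 were at -0.00 ± 0.25 and 0.03 ± 0.29 and did not pass, but were at -0.90 and -0.88 with those library sizes (adjusted p = 0.0034 and 0.012).

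In Flexor minus Achilles 6 were higher and 0 lower, against 3.75% and 12.1% of all genes (15.8% either way). With fast and slow fibre counts as library sizes 5 were higher and 2, Colq and Rapsn, lower. Each of the 10 genes was lower by a similar amount on that scale than on the core muscle scale. Chrne was at 5.30 against 5.82 and Rapsn at -0.59 against -0.05. In a fit of all 16 libraries 2, Chrne and Ache, were higher and 0 lower. No share of all genes was computed for these other fits. The 6 were Chrne (5.82 ± 0.43), Ache (3.67 ± 0.37), Chrnd (2.61 ± 0.38), Chrna1 (1.75 ± 0.31), Chrnb1 (1.74 ± 0.22) and Musk (1.12 ± 0.25). Chrne stood at 30.1 to 44.7 per 1000 CPM of core muscle in Flexor and at 0.369 to 1.23 in Achilles. In these comparisons fibre type, Schwann cell and adipocyte markers moved as well: 11 of 12 fast fibre genes were higher and 11 of 11 slow fibre genes lower in Flexor than in Achilles relative to muscle. On the same scale all 14 Schwann cell markers were lower in Supraspinatus than in Flexor and in Achilles. All 9 adipocyte markers were lower in Supraspinatus and in Flexor than in Achilles, and took 0.0993% ± 0.0668, 1.41% ± 0.735, 0.0910% ± 0.0171 and 0.918% ± 0.246 of counts in Supraspinatus, Patellar, Flexor and Achilles. Their part in the results was not tested.

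**Figure D3:**
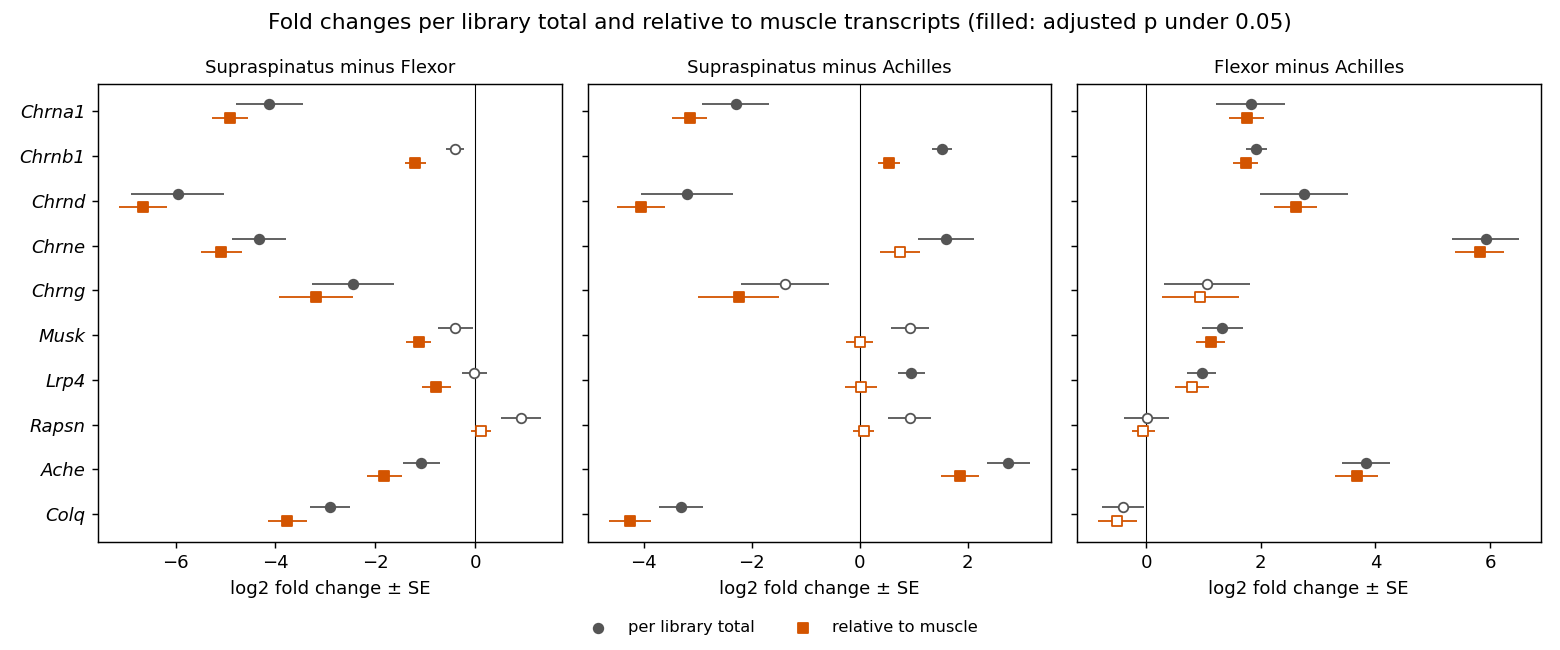
Log2 fold changes (x axis, ± SE) of the 10 genes in 3 comparisons of 4 libraries against 4, per library total (grey circles, fit of 16 libraries) and relative to core muscle transcripts (orange squares, fit of 12 libraries); filled symbols passed. Rapsn sits near 0 relative to muscle in all 3 panels, while Chrna1 and Chrnd are low in Supraspinatus and Chrne is high in Flexor.

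**Figure D4:**
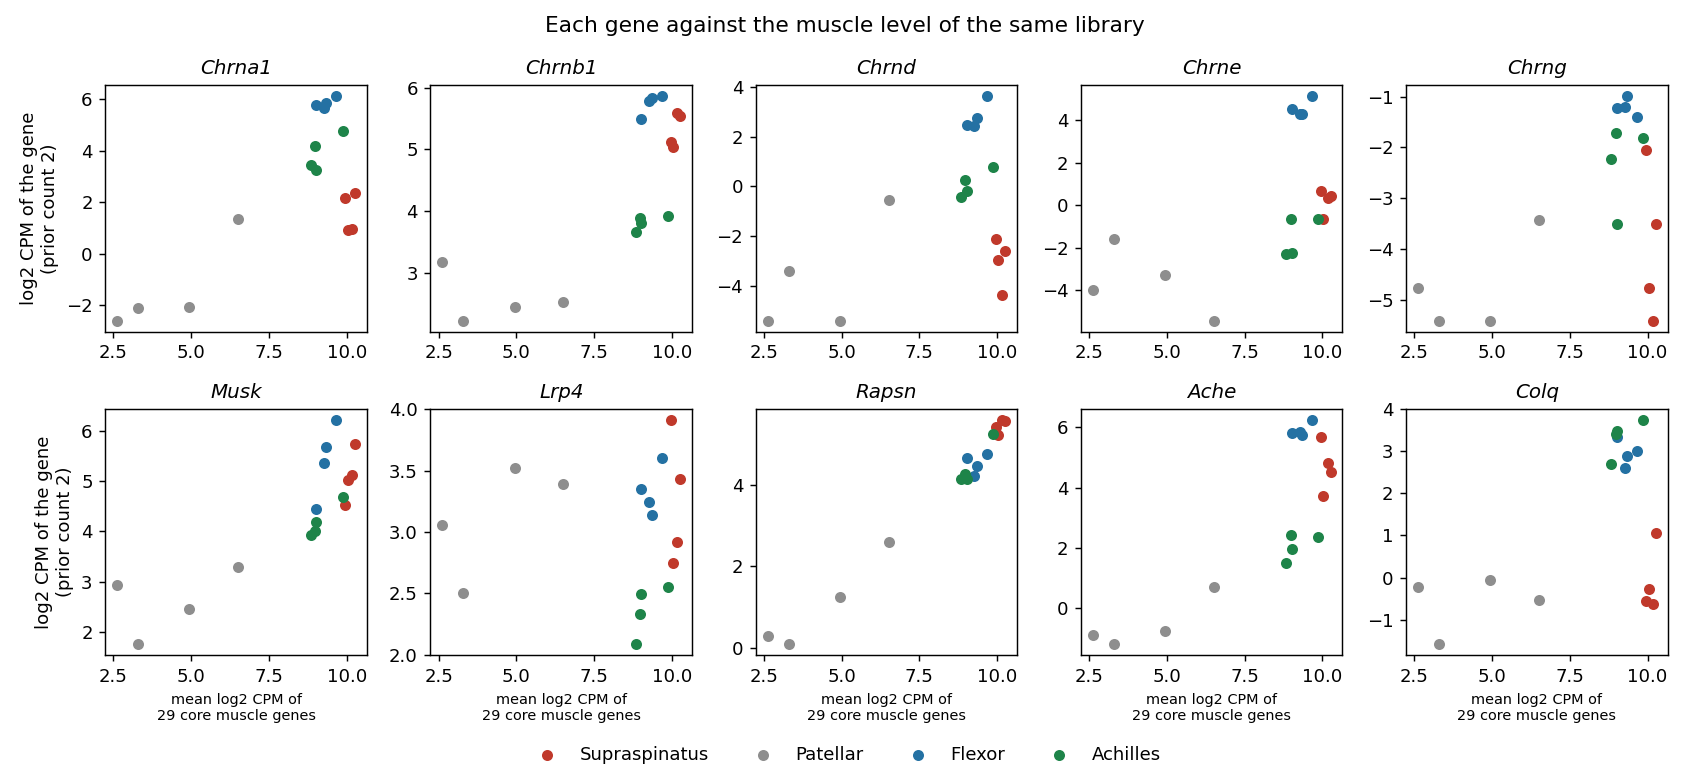
Log2 CPM of each gene (y axis, prior count 2) against the mean log2 CPM of 29 core muscle genes (x axis) in 16 libraries, coloured by tendon. Rapsn falls along 1 line, Chrna1 and Chrnd are low in Supraspinatus although its muscle level is highest, and Lrp4 in Patellar libraries overlaps all other tendons.

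Patellar libraries had too little muscle transcript for a rescaled test, and their ratios are given as values. Rapsn stood at 66.5 to 194 per 1000 CPM of core muscle there. Chrna1 stood at 6.99 to 27.4, above the Supraspinatus libraries and overlapping Achilles, but rested on 109, 11, 6 and 8 reads in the Patellar libraries. Lrp4 at 115 to 1350 and Musk at 107 to 1240 were above every library of the other tendons, while Chrnb1 at 63.5 to 1466 overlapped Flexor, at 71.4 to 89.2, through Patellar replicate 1. All 3 were highest in Patellar replicate 2, which had the least muscle transcript.

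Of 39 further genes known from the junction, 33 differed over the 4 tendons, where 64.9% of all genes tested did. In Flexor minus Achilles 4 were higher and 4 lower, in Supraspinatus minus Achilles 12 and 8, and in Supraspinatus minus Flexor 9 and 9, with medians of 0.03, 0.20 and 0.08. Of all genes tested, 6.5% were higher and 9.72% lower in the first of these comparisons. These shares were 16.9% and 16.7% in the second and 14.7% and 12.4% in the last. Relative to core muscle, 3 of the 39 were higher and 6 lower, then 4 and 26, then 4 and 24, in the same order. Of all genes, 3.75% were higher and 12.1% lower on that scale, then 3.63% and 65.2%, then 5.23% and 55.1%. Changes below are per library total unless another scale is named. Dok7, the adaptor that activates MuSK from inside the cell, was at 37.2 ± 8.17 CPM in Supraspinatus, 2.55 ± 0.519 in Patellar, 32.6 ± 9.42 in Flexor and 23.5 ± 4.43 in Achilles. Agrn, which codes for agrin, was at 13.6 ± 2.35, 22.9 ± 13.8, 14.2 ± 2.80 and 18.9 ± 2.52 CPM in the same order and did not pass over the 4 tendons (adjusted p = 0.16).

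Utrn, which codes for utrophin, a dystrophin relative of the junctional membrane, was at 125 ± 11.1 CPM in Supraspinatus, 326 ± 26.5 in Patellar, 282 ± 14.1 in Flexor and 276 ± 7.26 in Achilles. It was lower in Supraspinatus than in Flexor by a log2 change of -1.18 ± 0.10. Ufsp1 was at 8.35 ± 1.41 CPM in Supraspinatus, 2.89 ± 0.464 in Patellar, 18.9 ± 2.26 in Flexor and 5.74 ± 0.654 in Achilles, 1.72 ± 0.17 higher in Flexor than in Achilles. It starts 162 bases after the end of Ache on the same strand. Vldlr, a lipoprotein receptor gene, was 0.95 ± 0.26 higher in Flexor and 1.34 ± 0.26 higher in Supraspinatus than in Achilles. Crk, an adaptor of the MuSK pathway, was higher in Supraspinatus than in Flexor (1.46 ± 0.14). Dnaja3, a co-chaperone that binds MuSK, was higher there by 0.49 ± 0.14. Relative to core muscle Crk was still higher (0.71 ± 0.23, adjusted p = 0.016), while Dnaja3 was at -0.31 ± 0.18 and did not pass.

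Of 16 genes of denervated or fetal muscle, 13 differed over the 4 tendons, against 64.9% of all genes. In Flexor minus Achilles 4 were higher and 1 lower, against 6.5% and 9.72%. In Supraspinatus minus Flexor 2 were higher and 3 lower, against 14.7% and 12.4%. Relative to core muscle 4 were higher and 4 lower in the first, against 3.75% and 12.1%. On that scale 2 were higher and 10 lower in the second, against 5.23% and 55.1%. Mymk, which codes for a protein of myoblast fusion, was at 0.816 ± 0.547 CPM in Supraspinatus, 0.00574 ± 0.0115 in Patellar, 3.36 ± 1.36 in Flexor and 0.361 ± 0.181 in Achilles. It was higher in Flexor than in Achilles by 3.21 ± 0.60. The perinatal myosin gene Myh8 was also higher there (2.07 ± 0.52). The embryonic myosin gene Myh3 was at 8.52 ± 4.87, 3.04 ± 4.85, 17.1 ± 4.96 and 72.1 ± 30.3 CPM in Supraspinatus, Patellar, Flexor and Achilles, highest in Achilles. Myog, which codes for the factor myogenin, was at 3.84 ± 1.67, 0.329 ± 0.579, 8.45 ± 2.07 and 4.71 ± 1.59 CPM. Its Flexor minus Achilles change of 0.84 ± 0.69 did not pass.

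Ncam1, an adhesion gene of synapses and denervated fibres, was at 43.2 ± 15.9, 29.9 ± 13.1, 73.7 ± 15.3 and 52.0 ± 5.65 CPM in the same order, with 0.50 ± 0.28 in Flexor minus Achilles, which did not pass. Trim63 and Fbxo32, the ubiquitin ligase genes of muscle atrophy, were higher in Supraspinatus than in Achilles (1.83 ± 0.61 and 1.39 ± 0.46). Cdkn1a, the p21 gene, was too (1.68 ± 0.30). Relative to core muscle Trim63 and Cdkn1a still passed there (0.99 ± 0.28 and 0.72 ± 0.28), and Fbxo32 did not (0.49 ± 0.36, adjusted p = 0.22). Of the whole list of 16 genes, 4 were higher and 2 lower in Supraspinatus minus Achilles, against 16.9% and 16.7% of all genes. Relative to core muscle 2 of them were higher and 9 lower there, against 3.63% and 65.2%. Sln, which codes for the calcium pump regulator sarcolipin, was lower in Supraspinatus than in Flexor (-5.43 ± 0.98). Among myosins, Myh4, of the fastest fibres, was 4.68 ± 0.70 and 6.31 ± 0.76 higher in Flexor and Supraspinatus than in Achilles, and Myh1 2.07 ± 0.56 and 1.93 ± 0.56 higher. Myh2 did not pass per library total in these comparisons or in Supraspinatus minus Flexor. Myh7, of slow fibres, was lower than in Achilles by log2 changes of -8.26 ± 0.94 in Flexor and -8.90 ± 0.96 in Supraspinatus.

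Likeness of pattern was measured as Pearson's r of log2 CPM over libraries, which share their tendon and depth. Over 16 libraries Chrne was closest to Ufsp1 (r = 0.962), then to Greb1 (0.937) and Ptbp2 (0.930). Over the 12 libraries other than Patellar Ufsp1 was again first (0.987), before Acsl6 (0.972) and Lrtm1 (0.962). Chrna1 and Chrnd were each the nearest to the other over these 12 (0.982), and over 16 Chrna1 was closest to Csdc2 (0.967) and Chrnd to Myh6 (0.958). Chrng was closest to Chrna1 (0.914) over 16.

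Rapsn was closest to Cacng6 (0.997), Dpf3 (0.992) and Ldb3 (0.992) over 16 libraries. Ache was closest to Sbk2 (0.973), Pde4b (0.971) and Mybbp1a (0.970). Musk was closest to Cnot1 (0.977), Chrnb1 to Polr2b (0.988) and Lrp4 to Cdh4 (0.793). Over 16 libraries Colq was closest to P2rx7 (0.952), and over the 12 without Patellar to Kcna2 (0.977), Utrn (0.974) and Ugt8a (0.974).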

How the data were processed

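RNA from 4 tendons was sequenced in 16 libraries, 4 per tendon. The authors deposited whole-number read counts per gene for 41204 genes, and a table of log2 fold changes, mean log2 CPM, p-values and FDR values for 13452 genes. The tools that appear in the submitters' processing notes are FastQC, HISAT2 and edgeR, with mm10 as the build. The counter, strand setting and annotation were not given in the sources used here, so overlapping and antisense genes are uncertain. The deposited log2 fold changes run in the opposite order to those here.

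Counts were fitted in R 4.3.3 with edgeR 4.0.16 (filterByExpr by tendon, 23754 genes; TMM; robust quasi-likelihood, 1 mean per tendon, 2-sided, Benjamini-Hochberg over all genes, threshold 0.05). SE is the absolute log2 fold change over the square root of F. P-values set the difference between tendons against the spread between libraries, which was estimated from all libraries of a fit. A second fit of 12 libraries (22985 genes) set library sizes by the mean log2 CPM (prior count 2) of 29 core muscle genes. The steps were tested on simulated counts. Positions are from GENCODE M21 (GRCm38, the assembly of mm10). Other settings used DESeq2 1.42.0, limma 3.58.1 and others named below; figures used matplotlib 3.10.9. Members, gene lists and tests were chosen with earlier results of these data known. Genes of 2 further lists were named when past the test over 4 tendons with a mean CPM of at least 1, up to 8 each by adjusted p, with Agrn, Dok7, Myog, Ncam1 and 4 myosins always; near genes are the 3 with the highest r per member. 1 gene that this rule names is not reported here. The muscle-relative permutation test was left unadjusted, in place of an adjustment over the 10 genes alone. Protein sequences were not used here.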

Additional observations from a re-analysis of the deposited data

Results flagged for a closer look

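In 44 groups of 4 libraries (10 genes and the core muscle level in 4 tendons), 5 had a highest library set apart from the other 3 by Dixon's criterion, which chance meets in about 1 group of 20. Patellar replicate 1, the Patellar library with the largest core muscle share (0.770%), was far above the other 3 for Chrna1 (2.50 CPM), Chrnd (0.666 CPM) and Ache (1.63 CPM). Supraspinatus replicate 1 was far above the others for Colq, at 2.07 CPM. Achilles replicate 3, with the largest core muscle share of its tendon (8.83%), was far above the others for Rapsn, at 38.2 CPM.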

How the results depend on the processing

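Depth limits Chrng everywhere and Chrnd and Chrne in Patellar, where libraries held 0 to 29 reads of either. It also limits Chrnd in Supraspinatus, at 2 to 18 reads, and Chrne in Achilles, at 18 to 62. In Patellar, Chrna1 had 6 to 109 reads, Ache 12 to 71 and Colq 9 to 64. Fold changes against those groups rest on few reads. Numbers of passing genes kept within 1.5 times under other size factors, filters, DESeq2, limma with voom, the 8 libraries alone, fits without Patellar or without rRNA-like genes, a minimum fold change and other muscle measures, though with fast and slow fibre counts as library sizes the muscle-relative split was 5 higher and 2 lower in Flexor minus Achilles and 1 higher and 7 lower in Supraspinatus minus Achilles. With core muscle as a covariate 2 genes passed in Patellar minus Achilles, 3 in Patellar minus Flexor and 3 in Supraspinatus minus Patellar. That level did not overlap between Patellar and the other tendons, so these changes are extrapolations. Shares over all genes were computed for the main fits alone. The muscle-relative fit of all 16 libraries passed 2 genes in Flexor minus Achilles, 3 in Supraspinatus minus Achilles and 5 in Supraspinatus minus Flexor; the cause was not tested. Deviations from the tendon mean had a median r of 0.017 between same-numbered mice and -0.0069 between others. Of 24 same-numbered pairs 2 had r over 0.1, both of Flexor with Supraspinatus (0.255 for mice 4 and 0.150 for mice 2). Of 16 libraries 5 matched their own number best. With the replicate block 7 genes passed in Flexor minus Achilles, and 5 passed in Supraspinatus minus Flexor, against 6 without it.

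Leaving out each library in turn gave 9 to 10 genes over the 4 tendons, 3 to 7 in Flexor minus Achilles, 7 to 10 in Patellar minus Achilles, 6 to 9 in Supraspinatus minus Achilles, 9 to 9 in Patellar minus Flexor, 4 to 7 in Supraspinatus minus Flexor and 6 to 7 in Supraspinatus minus Patellar. Relative to muscle it gave 6 to 7, 5 to 7 and 8 to 9 in Flexor minus Achilles, Supraspinatus minus Achilles and Supraspinatus minus Flexor. The Flexor minus Achilles number fell past 1.5 times without Achilles replicate 1, 2 or 4 or Flexor replicate 1, and Chrna1 passed there only where Achilles replicate 3 or a Patellar library was the one left out. Lrp4 missed the test over 4 tendons without Achilles replicate 2 (adjusted p = 0.052). Directions turned with the muscle covariate for Chrnd in Patellar minus Achilles (2.89) and Patellar minus Flexor (0.37) and for Chrna1 in Supraspinatus minus Patellar (-3.17), for Chrnd in Supraspinatus minus Patellar without Patellar replicate 1 (the range over libraries left out was -1.13 to 2.92), and, with fast and slow fibre counts as library sizes, in Supraspinatus minus Achilles for Chrnb1 (-0.35), Lrp4 (-0.88) and Rapsn (-0.83).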

Other observations

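The unnamed gene 4930544D05Rik, on the opposite strand over the Chrne span, was at 0.214 ± 0.194 CPM in Supraspinatus, 0.0125 ± 0.0145 CPM in Patellar, 3.64 ± 1.33 CPM in Flexor and 0.0693 ± 0.0433 CPM in Achilles (SD, n = 4 each). Its order of tendons was that of Chrne. It was looked up after the Chrne values were seen, and without strand information its reads and those of Chrne cannot be told apart where they lie together.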
